A study of Mus musculus with 2 samples.

Results

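The proteasome subunit genes were examined in chromatin of mouse left cerebral cortex. They were the protein-coding genes of the mouse annotation whose symbol is Psma, Psmb, Psmc, Psmd or Psme followed by a number, which gave 43 of 21938 protein-coding genes, spread over 16 chromosomes. Each of 2 animals, females of the F1 cross B6CASTF1/J at 36 days of age, gave 1 library. The labels number the animals separately but list them under the same donor record, name no treatment, and form 1 group, so there is no contrast to test and all values below are descriptions. DNase-seq measures where the nuclease DNase I can cut, which marks open chromatin such as promoters in use and bound regulatory sites, and it measures neither RNA nor protein. The deposited lists do not separate the parental alleles.

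The proteasome is the cell's main machine for destroying proteins that carry a ubiquitin tag. Its 20S core is a stack of alpha and beta rings, in which the beta subunits Psmb5, Psmb6 and Psmb7 cut the protein chain. Its 19S cap recognises, unfolds and feeds in the substrate, with ATPases (Psmc genes) in its base and further subunits (Psmd genes) in its base and lid. Cells exposed to interferon exchange the standard cutters for the immune forms Psmb8, Psmb9 and Psmb10, which favours peptides for display to T cells. In the thymus Psmb11 takes the place of Psmb5, and in the testis Psma8 takes the place of Psma7. Nearly every cell type, neurons included, uses the standard form.

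The sequences under the promoter peaks of 5 of the 6 catalytic subunits are shown first because the comparison of standard with immune genes turns on them. That of Psmb7 is not shown. The sequence at Psmb3 is added for a motif described further on. Each runs 5′ to 3′ on the strand of its gene, from the mm10 (GRCm38) reference, and covers the part of the highest promoter peak that the mice shared. It ends 30 bases past the first coding start where the peak held one, and at Psmb10 it is the central 300 bases of the peak. Capitals mark bases that lay in a deposited footprint of both mice, where a footprint is a short stretch protected from cutting inside open chromatin. Psmb5, on the minus strand at chr14:54617993-54618140, is the standard subunit with chymotrypsin-like activity.
Psmb5: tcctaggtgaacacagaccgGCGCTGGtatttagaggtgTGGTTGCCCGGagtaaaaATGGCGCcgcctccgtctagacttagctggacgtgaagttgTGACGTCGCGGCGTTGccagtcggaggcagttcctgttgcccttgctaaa
Psmb6, on the plus strand at chr11:70525261-70525415, is the standard subunit with caspase-like activity.
Psmb6: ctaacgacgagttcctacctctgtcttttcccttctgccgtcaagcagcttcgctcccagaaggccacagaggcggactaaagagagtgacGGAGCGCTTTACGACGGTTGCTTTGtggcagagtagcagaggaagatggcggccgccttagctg
Psmb8, on the plus strand at chr17:34197561-34197750, is the immune form that replaces Psmb5.
Psmb8: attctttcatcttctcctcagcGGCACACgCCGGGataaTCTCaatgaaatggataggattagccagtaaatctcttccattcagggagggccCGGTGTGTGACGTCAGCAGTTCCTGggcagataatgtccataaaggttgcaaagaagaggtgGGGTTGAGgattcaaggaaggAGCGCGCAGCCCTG
Psmb9, on the minus strand at chr17:34187341-34187520, is the immune form that replaces Psmb6.
Psmb9: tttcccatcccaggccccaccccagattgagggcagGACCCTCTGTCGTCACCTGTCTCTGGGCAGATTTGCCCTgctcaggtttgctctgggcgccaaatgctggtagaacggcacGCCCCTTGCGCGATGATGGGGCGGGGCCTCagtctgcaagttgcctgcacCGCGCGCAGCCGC
Psmb10, on the minus strand at chr8:105937011-105937310, is the immune form that replaces Psmb7.
Psmb10: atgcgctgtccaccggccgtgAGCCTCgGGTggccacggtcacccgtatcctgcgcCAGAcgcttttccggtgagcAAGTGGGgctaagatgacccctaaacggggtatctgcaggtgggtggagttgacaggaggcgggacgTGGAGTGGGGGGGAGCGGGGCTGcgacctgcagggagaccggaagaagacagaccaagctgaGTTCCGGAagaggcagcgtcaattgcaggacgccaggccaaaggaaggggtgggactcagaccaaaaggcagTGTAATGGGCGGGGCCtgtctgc
Psmb3, on the plus strand at chr11:97703181-97703428, is a beta ring subunit with no cutting activity.
Psmb3: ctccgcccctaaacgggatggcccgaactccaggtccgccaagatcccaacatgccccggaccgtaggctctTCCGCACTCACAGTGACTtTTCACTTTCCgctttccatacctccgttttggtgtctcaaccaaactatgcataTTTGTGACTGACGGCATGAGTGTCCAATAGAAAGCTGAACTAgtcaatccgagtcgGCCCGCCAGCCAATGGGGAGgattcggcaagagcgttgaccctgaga
Footprints of both mice covered 41 of the 148 bases at Psmb5, 25 of 155 at Psmb6, 63 of 190 at Psmb8, 82 of 180 at Psmb9, 67 of 300 at Psmb10 and 90 of 248 at Psmb3.

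Nearly all proteasome genes had an open promoter in this cortex. A gene was called when each mouse had a peak of the shorter deposited list within 1 kb of an annotated transcript start and the peaks overlapped by at least 1 bp. By that rule 41 of 43 members were called, against 61.0% of all protein-coding genes (13384 of 21938). The exceptions were Psma8, the testis alpha subunit on chromosome 18, and Psmb11, the thymus beta subunit on chromosome 14. At both genes neither mouse had a peak of the shorter or the longer list, a footprint, or a base in a run under the cut-rate false discovery rate (FDR) of 0.001 within 1 kb of a start. The sources used here do not give the depth in reads, and this absence is one of calls, not of cuts. All 38 other genes that are neither immune, testis nor thymus forms were called, and so were all 3 immune genes.

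The count of 41 held in most other ways of calling. It was 41 with the longer list (65.4% of all protein-coding genes called), with a window of 500 bp (59.7%), with only peaks above the median height of their library (54.6%), with an overlap of at least 50% of the shorter peak (60.7%), and with starts of coding transcripts alone (59.7%). It was also 41 in replicate 1 alone (63.4%) and in replicate 2 alone (62.3%). With the start of the gene record as the only start the count was 38 (56.5%), and Psma6, Psmd5 and Psmd9 were lost. With coding starts and a window of 500 bp it was 40 (58.4%), and Psmb10 was lost. A footprint within 1 kb of a start in each mouse was present at 41 members, against 64.4% of all protein-coding genes.

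How high these peaks stood was read within each library, because the deposited height carries a factor per library that is not stated. Over all 13384 called genes the median ratio of the height in replicate 2 to that in replicate 1 was 0.720, so ratios between the mice are given centred on this value. Each gene was given the height of its highest promoter peak and a percentile, the percent of called protein-coding genes with a lower one in the same library. Among the 41 called members the height ranged from 1.57 to 12.97 with a median of 4.83 in replicate 1, and from 1.20 to 7.21 with a median of 3.73 in replicate 2. The median percentile was 59.5 and 64.7, where all called genes had 50 and 49.9 by construction. In replicate 1 there were 26 of 41 members at or above the 50th percentile, and in replicate 2 there were 30. The top 10% of called genes held 6 members in each mouse and the lowest 10% held none. The called members were thus spread over most of the height range, from the 14.1 percentile to the 99.3 in replicate 1 and from 15.2 to 97.6 in replicate 2.

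**Figure D1:**
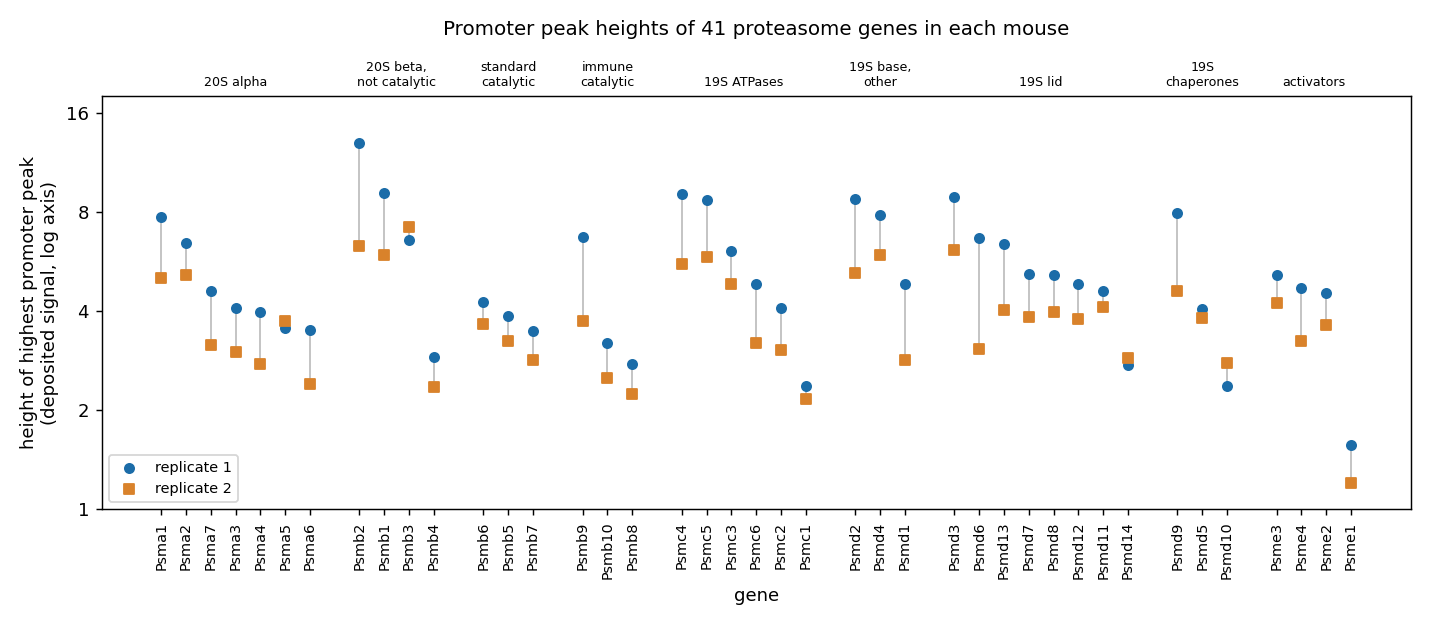
Height of the highest promoter peak (deposited signal, log axis) of the 41 called proteasome genes, grouped by role, with circles for replicate 1 and squares for replicate 2 joined by a line per gene. Psmb2 stands highest at 12.97 in replicate 1, Psmb3 highest at 7.21 in replicate 2, and Psme1 lowest in both mice with all transcript starts counted.

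The cutting subunits of the standard core had promoter peaks in the middle of the range. Psmb5 (ENSMUSG00000022193.7) had a height of 3.85 in replicate 1 and 3.25 in replicate 2, at percentiles 46.5 and 55.7. Psmb6 (ENSMUSG00000018286.6) had 4.26 and 3.65, at percentiles 52.0 and 63.1. Psmb7 (ENSMUSG00000026750.6), the subunit with trypsin-like activity, had 3.48 and 2.84, at percentiles 41.5 and 48.1. The order Psmb6, Psmb5, Psmb7 was the same in both mice. The ratios between the mice were alike at the 3 genes, with centred log2 ratios of 0.23, 0.25 and 0.18. Their peaks were 200 to 220 bp wide, and each gene had 1 promoter peak in each mouse. That of Psmb7 lay downstream of its coding start, by 27 bp in replicate 1 and 7 bp in replicate 2, and covered a start of a transcript without coding sequence. Footprints within 1 kb of a start numbered 11 and 12 at Psmb5, 3 and 2 at Psmb6, and 2 and 5 at Psmb7.

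The immune forms were open too, with heights on both sides of those of the standard forms. Psmb8 (ENSMUSG00000024338.15) had a height of 2.75 in replicate 1 and 2.24 in replicate 2, at percentiles 31.1 and 37.1. Psmb10 (ENSMUSG00000031897.9) had 3.19 and 2.51, at percentiles 37.7 and 42.1. Psmb9 (ENSMUSG00000096727.3) had 6.70 and 3.73, at percentiles 80.4 and 64.7. Psmb8 and Psmb10 were thus lower than all 3 standard genes in both mice, and Psmb9 was higher than all 3 in both mice. Over the 3 genes the median percentile was 37.7 and 42.1, against 46.5 and 55.7 for the standard genes. With 3 genes a side in 1 tissue this is a description, and no difference between the classes was tested. Paired by the position they take in the ring, the percentile of the immune form minus that of the standard form was -15.4 and -18.6 for Psmb8 and Psmb5, 28.4 and 1.5 for Psmb9 and Psmb6, and -3.8 and -6.0 for Psmb10 and Psmb7. Read from starts of coding transcripts only, the last pair gave -27.2 and -34.2, since the highest peak of Psmb10 lies away from its coding start, and the other pairs gave -15.2 and -18.6, and 28.3 and 1.6.

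**Figure D2:**
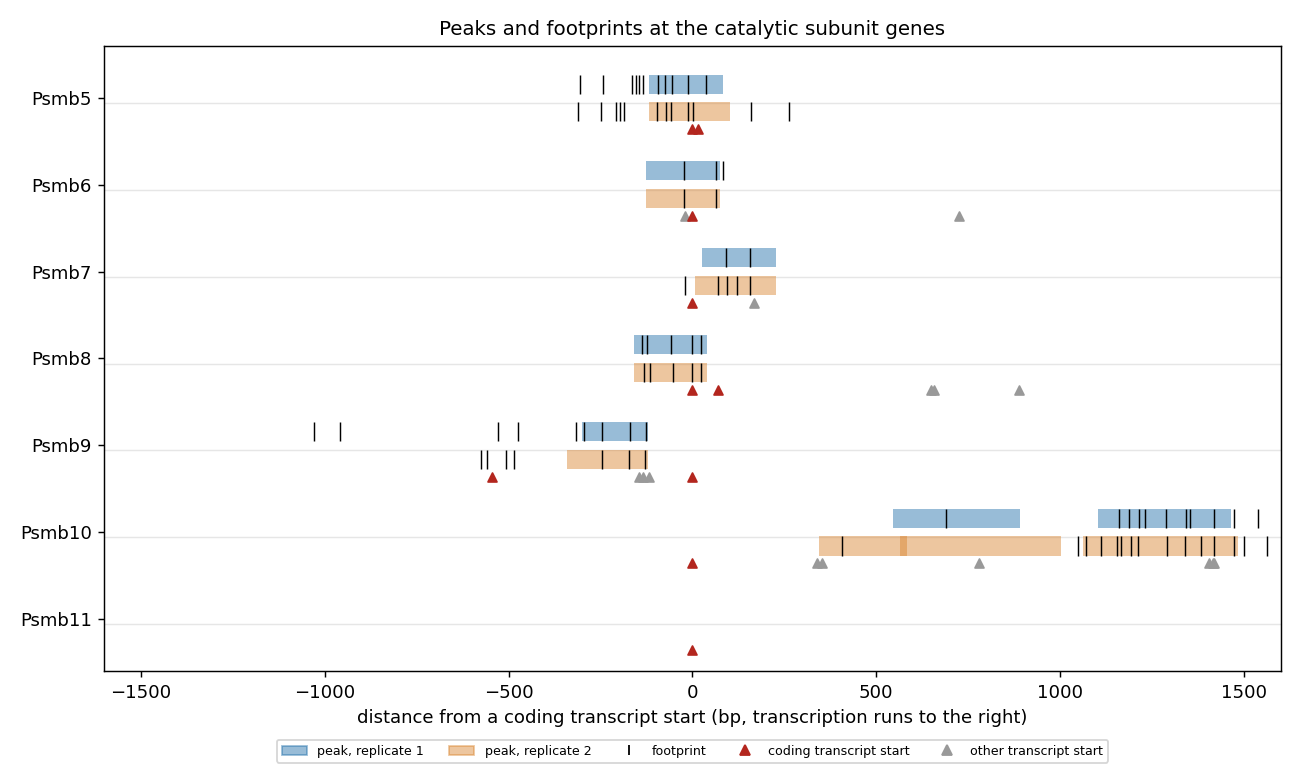
Peaks of the shorter list (bars) and footprints (ticks) in replicate 1 and replicate 2 at the catalytic subunit genes and Psmb11, against distance in bp from 1 coding start per gene (the one nearest the highest peak), with triangles for transcript starts. Peaks of Psmb5, Psmb6 and Psmb8 cover a coding start, and the peak of Psmb9 lies between coding starts. Those of Psmb7 and Psmb10 lie downstream of the coding start, and Psmb11 has none.

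The immune genes differed in where their peaks sat. At Psmb8 the peak chr17:34197561-34197760 was the same in both mice and covered the coding start at 34197721. It held 5 footprints in each mouse, all 5 overlapping between the mice. At Psmb9 the peak chr17:34187341-34187520 of replicate 1, extended to 34187560 in replicate 2, lay between coding starts of the gene at 34187219 and 34187764. In both mice it covered starts of Psmb9 transcripts without coding sequence. A start of Tap1 lay inside it in replicate 2 only. In replicate 1 the nearest start of Tap1 was 122 bp from the centre of the peak, which was 180 bp wide. Tap1 codes for a subunit of the transporter that carries proteasome-made peptides to the class I molecules. The genes run in opposite directions and their nearest starts are 30 bp apart, and these lists cannot divide the height of the peak between them. Psmb9 had a centred log2 ratio of -0.37, the third furthest of all members toward replicate 1.

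At Psmb10 the highest peak, chr8:105936981-105937340 in replicate 1 and chr8:105936961-105937380 in replicate 2, was not at the coding start. Its nearest edge lay 1104 bp and 1064 bp downstream of that start, at 105938444, where the annotation has starts of transcripts with no coding sequence inside the gene. Nearer to the coding start the shorter list held a peak of height 1.57 in replicate 1 and peaks of 1.12 and 0.847 in replicate 2. The coding start itself lay in no peak of the shorter list in either mouse. Replicate 2 alone had a peak of height 0.645 over it in the longer list. Read from coding starts, the height of Psmb10 was therefore 1.57 and 1.12, at percentiles 14.3 and 13.6. That was the same as Psme1 in replicate 1, at 1.57, and lower than Psme1 in replicate 2, at 1.20. Footprints near its starts were many, 11 and 15, the third most of all members by mean.

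The immune subunits are made at high level in cells of the immune system, of which the cortex holds microglia. Bulk tissue gives 1 value for a mixture, so a peak of middling height in many cells and a high peak in few cells cannot be told apart. The counts of marker genes that follow stand beside 61.0% of all protein-coding genes called. Of 10 microglial marker genes 2 were called, with a summed height of 5.07 and 3.57. Aif1, C1qa, C1qb, Csf1r, Cx3cr1, Itgam, P2ry12 and Tmem119 had no promoter peak in both mice. All 6 markers of cortical neurons were called, with a summed height of 19.42 and 11.20. These sums follow the number of genes called, and the called neuron markers had median percentiles of 34.3 and 24.2, beside 27.9 and 27.1 for the 2 called microglial markers. Astrocyte markers were called at 3 of 4 genes (Aqp4 was not), oligodendrocyte markers at 1 of 3, and endothelial markers at 0 of 4. What each cell type contributed to the peaks of the immune genes was not tested.

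**Figure D3:**
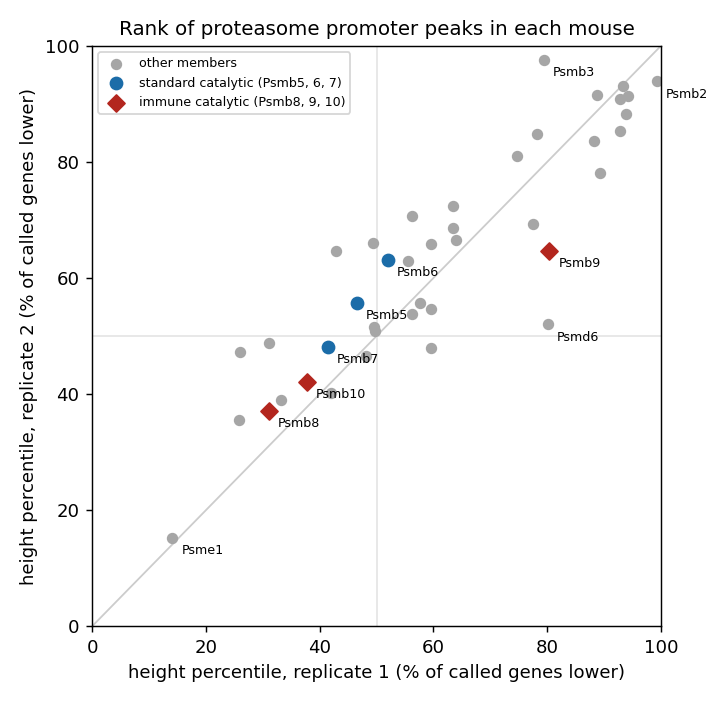
Height percentile in replicate 1 (x axis) against replicate 2 (y axis) of the 41 called proteasome genes, in percent of called protein-coding genes with a lower peak, with the line of equal rank. Psmb8 and Psmb10 lie lower left of the standard catalytic genes, Psmb9 lies to their upper right, and Psmb3, Psmd6 and Psmb2 are among the members furthest from the line or highest.

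The beta ring subunits that do not cut held the highest peak of the family in each mouse. Psmb2 had the highest promoter peak of all members in replicate 1, with 12.97 at percentile 99.3, and 6.32 at percentile 93.9 in replicate 2. Psmb1 had 9.16 and 5.91, at percentiles 94.2 and 91.4. That peak covered no start of Psmb1 in either mouse, and in replicate 1 its centre was 8 bp from a start of the neighbouring gene Tbp. A separate peak over coding starts of Psmb1 had 6.165 and 4.37. Psmb3 had 6.59 and 7.21, at percentiles 79.4 and 97.6, and was the highest member in replicate 2. Psmb4 stood apart with 2.90 and 2.34, at percentiles 33.2 and 39.0, among the 5 lowest members. Psmb2 and Psmb3 were also among the 6 members that differed most between the mice, in opposite directions, with centred log2 ratios of -0.56 and 0.60. These are single libraries, so a difference between the mice has no replicate check. With the highest peak counted for each, that of Psmb1 near Tbp included, the median percentile of the 4 genes was 86.8 and 92.6.

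The alpha ring, which gates the entry to the core, was closer to the middle. All 7 genes Psma1 to Psma7 were called, with heights from 3.51 to 7.76 in replicate 1 and from 2.40 to 5.17 in replicate 2. Psma1 and Psma2 were the highest of them in both mice and Psma6 the lowest. The median percentile was 49.7 and 53.8. Psma7, the subunit that Psma8 replaces in the testis, had 4.60 and 3.15, at percentiles 56.3 and 53.8, and the most footprints of any member by mean, 14 in replicate 1 and 17 in replicate 2. Psmb1 followed with 15 and 13 footprints. Both had wide open surroundings, with 1592 and 1722 bases within 1 kb of a start under the strict FDR of 0.001 at Psma7 and 1766 and 1778 at Psmb1.

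The 6 ATPases of the cap base, which unfold the substrate, were all called, with median percentiles of 67.1 and 67.9. Psmc5 had 8.74 in replicate 1 and 5.85 in replicate 2, at percentiles 92.8 and 90.9. Psmc4 had 9.08 and 5.55, at percentiles 93.9 and 88.3. At the other end Psmc1 had 2.36 and 2.17, at percentiles 25.9 and 35.6, the second lowest mean percentile of the family. Subunits that sit in 1 hexamer ring in equal number thus had promoter peaks that differed 3.85-fold in height in replicate 1 and 2.70-fold in replicate 2. The remaining base subunits, the scaffolds Psmd1 and Psmd2 and the ubiquitin receptor Psmd4, had median percentiles of 88.7 and 85.4. Psmd4 had 7.83 and 5.95, and Psmd2 had 8.77 and 5.22. Psmd1 was lower, with 4.84 and 2.83 at percentiles 59.5 and 47.9. Its highest peak was not the same in the mice. The peak over its coding start had 3.05 and 2.83, and the one before it had 4.84 and 2.52.

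In the lid, which strips ubiquitin from the substrate, all 8 genes were called with median percentiles of 63.7 and 67.6. Psmd3 was the highest, with 8.88 and 6.14 at percentiles 93.3 and 93.1, and of the 5 highest members its percentile differed least between the mice. Psmd6 had 6.67 in replicate 1 but 3.06 in replicate 2, at percentiles 80.1 and 52.0, with the centred log2 ratio furthest toward replicate 1, -0.65. Psmd14, the enzyme that removes the ubiquitin chain, had the lowest lid peak in both mice, 2.75 and 2.88 at percentiles 31.1 and 48.8, and a ratio of 0.54 toward replicate 2. Its peak was wide, 520 bp and 360 bp, where the median over called members was 220 bp and 240 bp.

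Of the 3 chaperones that help assemble the cap and then leave, Psmd9 had 7.96 and 4.61, Psmd5 had 4.07 and 3.81, and Psmd10 had 2.37 and 2.79. Psmd10, on the X chromosome, had the ratio furthest toward replicate 2 of all members, 0.71, and lay at percentiles 26 and 47.2. Both mice were female. Across all called members the SD of the centred log2 ratio was 0.29, against 0.33 over all called genes.

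The alternative activators cap the core in place of the 19S particle. Psme1 and Psme2, whose products form the interferon-inducible ring that works beside the immune core, differed from each other. With all transcript starts counted, Psme1 was the lowest member in both mice, with 1.57 and 1.20 at percentiles 14.1 and 15.2. Psme2, its neighbour on chromosome 14, had 4.54 and 3.64 at percentiles 55.5 and 62.9, but that peak lay at the start of Rnf31, a ubiquitin ligase gene on the opposite strand. The peak over the coding start of Psme2 had 3.37 and 3.19, still higher than that of Psme1. Psme3, whose product forms a nuclear activator, had 5.15 and 4.24, from different peaks in the mice. The Psme3 peak chr11:101316061-101316160, listed in both mice, had 4.24 in each. Psme4, known for its role in the testis and in DNA repair, had 4.69 and 3.25.

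Some of the highest promoter peaks also lay at the start of a neighbouring gene. At 10 of the 41 called members (24.4%) the start of a protein-coding gene on the opposite strand lay within 1 kb of the highest peak, against 2417 of 13384 called genes (18.1%). At all 10 it lay inside the peak of at least 1 mouse. The partners were Mrpl32 at Psma2, AY074887 at Psma4, Ss18l1 at Psma7, Tbp at Psmb1, Tap1 at Psmb9, Dnajc2 at Psmc2, Ftsj3 at Psmc5, Atg4a at Psmd10, Sirt3 at Psmd13 and Rnf31 at Psme2. Tbp codes for the TATA-binding protein, Ss18l1 for a subunit of a neuronal chromatin remodelling complex, and Atg4a for a protease of autophagy, the cell's other main route of degradation. The nearest starts were 30 bp apart at Psmb9 and Tap1, 32 bp at Psmc2 and Dnajc2, 137 bp at Psmb1 and Tbp, and 595 bp at Psme2 and Rnf31. At Psme2 the highest peak lay 408 bp and 388 bp from the nearest start of Psme2. In replicate 1 its centre was 58 bp from a start of Rnf31, and Psme2 had a separate peak over its coding start. At Psmb1 the highest peak lay 30 bp from the nearest start of Psmb1 in both mice, and in replicate 1 its centre was 8 bp from a start of Tbp. Psmb1 too had a separate peak over coding starts, with 6.165 and 4.37. At Psmb1 and the other genes listed the height of the highest peak cannot be assigned to 1 of the partners. Without these 10 genes the median percentile, as the mean of the mice, was 62.1, the same as with them.

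Peaks of the members were centred close to the start, and their median width of 220 bp and 240 bp stood beside 240 bp and 260 bp over all called genes. The median position of the peak centre relative to the nearest start, negative where upstream, was -18.5 bp in replicate 1 and -19.5 bp in replicate 2, against -27.5 bp over all called genes in both mice. The peak covered an annotated start at 37 and 38 of 41 members, against 10122 and 10304 of 13384 called genes. The median member had 8 footprints in each mouse within 1 kb of a start, and 779 and 863 bases under the strict FDR. All protein-coding genes had a median of 6 footprints, and 551 and 553 such bases. Set beside called genes only, called members had a median of 8 and 9 footprints against 9 in each mouse. Their median of bases was 790 and 865 against 907 and 937, fewer in both mice. The number of bases depends on how many starts a gene has, and the median window was 4382 bp for members and 4002 bp for all genes.

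Motifs were searched on both strands in the RefSeq promoter table (GRCm38.p6, 250 bp before to 50 bp after each start), which holds 36 of the 43 members, and in 200 bp around peak centres of the called genes in that table. The table holds no entry for Psma8, Psmb1, Psmb2, Psmb7, Psmc3, Psmd3 and Psmd7. The promoter windows of Psmb8, chr17:34197945-34198244, and of Psmb10, chr8:105938343-105938642, did not overlap the highest peaks of these genes. There only the window around the peak centre searched sequence of that peak. A match is a description of letters and not a bound site. The ETS core CCGGAAG stood out by share, in 12 of 36 member promoters (33.3%) against 12.5% of all 16522 promoters in the table and 18.1% of those of called genes. Around peak centres it was in 13 of 35 members (37.1%) against 15.8%. The 12 promoters were those of Psma6, Psmc1, Psmc2, Psmc6, Psmd2, Psmd4, Psmd6, Psmd11, Psmd12, Psmd13, Psme3 and Psme4, of which 9 are genes of the 19S cap. The table holds 17 cap genes and 8 beta ring genes, and 0 of the 8 had a match in the promoter window. Cap genes here are all Psmc and Psmd genes, so they include the assembly chaperones Psmd5, Psmd9 and Psmd10, which had no match in either window. In the promoter window 1 of 7 alpha ring genes and 2 of 4 activators had a match. Around peak centres 10 of 17 cap genes and 1 of 7 beta ring genes, Psmb10, held the core, and 1 of the Psmb10 matches had 5 of 7 bases in footprints of both mice. Of 15 matches in these promoters 5 lay at least in part in footprints of both mice, against 36.0% of the matches in promoters of all called genes.

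**Figure D4:**
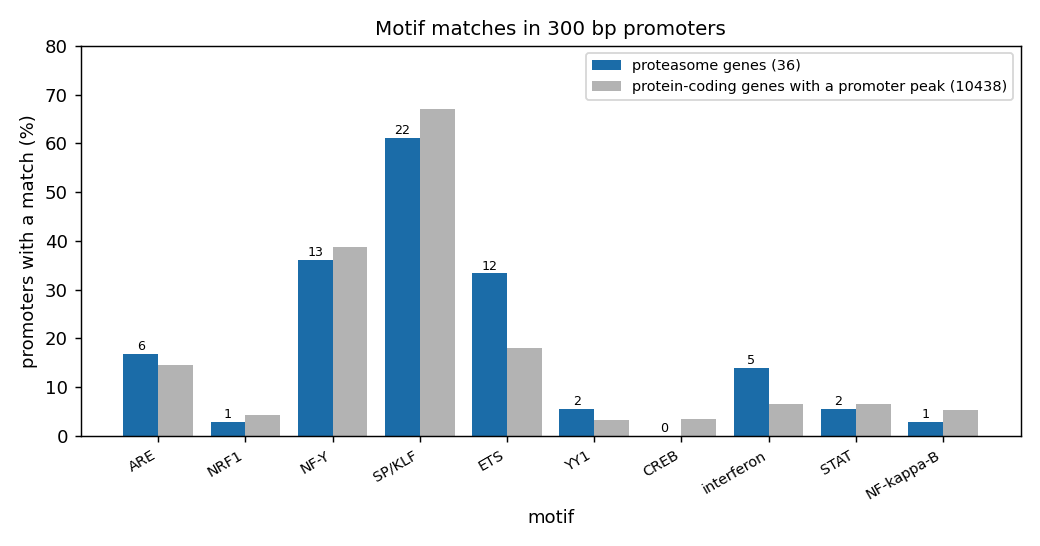
Percent of 300 bp promoters with at least 1 match to each motif, for the 36 proteasome genes in the table (dark bars, number of genes above) and for 10438 protein-coding genes with a promoter peak (grey bars). ETS is at 33.3% against 18.1%, SP/KLF at 61.1% against 67.1%, and NF-Y at 36.1% against 38.8%.

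The antioxidant response element, core TGACNNNGC, is the site through which Nfe2l1 raises proteasome genes when proteasome activity falls. It was in 6 of 36 member promoters (16.7%), against 13.3% of all promoters and 14.5% of those of called genes, so the share lay near the background. The members were Psmb5, Psmb6, Psmc6, Psmd9, Psmd12 and Psme4. At 3 of them the match lay in footprints of both mice. At Psmb5 all 9 bases of TGACGTCGC, chr14:54618034-54618042, were in footprints of both mice, as the capitals in its sequence above show. At Psmd9 all 9 bases of TGACCCCGC, chr5:123228159-123228167, were covered as well, and that match overlaps an SP/KLF core. At Psmb6 5 of the 9 bases of TGACGGAGC, chr11:70525348-70525356, were covered. Over promoters of all called genes 30.5% of matches to this core lay in footprints of both mice. Of the immune genes, Psmb8 and Psmb9 had no match in either window, and Psmb10 had 1 around its peak centre, chr8:105937085-105937093, with 7 of 9 bases in footprints of replicate 1 and none in those of replicate 2.

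The interferon element core GAAANNGAA was in 5 of 36 member promoters (13.9%), at Psmb3, Psmb4, Psmd4, Psmd9 and Psme1, against 8.29% of all promoters and 6.42% of those of called genes. Around peak centres it was in 4 of 35 (11.4%) against 2.93%. These letters were not in the windows searched at Psmb8, Psmb9 or Psmb10, where the promoter windows of Psmb8 and Psmb10 lay outside their highest peaks. At Psmb3 the match TTCACTTTC, chr11:97703272-97703280, and at Psmb4 the match TTCCGTTTC, chr3:94886953-94886961, lay with all 9 bases in footprints of both mice. Over promoters of all called genes 12.4% of matches to this core lay at least in part in such footprints. At Psme1 the match was in no footprint. Of the 35 members searched around peak centres only Psmb8 held the CREB core TGACGTCA, at chr17:34197661-34197668, 56 bp before its coding start, where all 8 bases lay in footprints of both mice. That core was in 3.57% of peak centres of called genes. Over promoters of all called genes 85.0% of matches to it lay at least in part in footprints of both mice, so a match in a footprint is the usual case.

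The remaining motifs had smaller differences in share or few matches. SP/KLF (GGGCGG) was in 61.1% of member promoters and 67.1% of those of called genes, and NF-Y (CCAAT) in 36.1% and 38.8%. Of 44 SP/KLF matches 27 lay in footprints of both mice, where 44.4% did over promoters of all called genes. Of 22 NF-Y matches in promoters of called members 5 did, where 21.7% did over all called genes. YY1 (AAGATGGCG) was in 5.56% against 3.21%, NRF1 (CGCATGCG) in 2.78% against 4.16%, STAT (TTCNNNGAA) in 5.56% against 6.56%, and NF-kappa-B, by its usual consensus, in 2.78% against 5.24%. Around peak centres YY1 was in 3 of 35 members (8.57%), Psmb6, Psmc5 and Psmd11, against 3.04%, and NF-kappa-B in 0 of 35 against 3.34%. The median ratio of observed to expected CpG in member promoters was 0.749, between that of all promoters (0.613) and that of called genes (0.778), where promoters of genes not called had 0.195.

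Genes that work with the proteasome were open as well. From a list of 29 such genes 28 were in the annotation, Paaf1 being the exception. All 28 were called, against 61.0% of all protein-coding genes, with median percentiles of 75.1 and 68.8. The highest 3 by the mean percentile of the mice were Rad23b, a shuttle that brings tagged proteins to the proteasome, with 12.28 and 8.82 at percentiles 98.9 and 99.5, Ubb, a ubiquitin gene, with 8.25 and 6.66, and Vcp, the ATPase that pulls tagged proteins out of complexes, with 7.81 and 6.68. Nfe2l1 had 5.91 and 6.39, and the assembly factor Pomp had 4.99 and 3.53. The 79 ribosomal protein genes, another family that every cell uses, were called at 76 (96.2%), with median percentiles of 72.7 and 77.8, higher than the 59.5 and 64.7 of the proteasome genes.

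Genes of antigen presentation, which the immune subunits serve, were all called, 12 of 12, against 61.0% of all protein-coding genes. Their median percentiles were 51.5 and 39.3. The peak of Tap1 is the one it shares with Psmb9. Tapbp had 6.41 and 5.83, at percentiles 77.7 and 90.8, and H2-D1 had 9.02 and 3.96, at percentiles 93.8 and 68.4. H2-K1 had 1.79 and 1.22, at percentiles 17.3 and 15.7. Nlrc5, the activator of class I genes, was the lowest, with 1.17 and 0.679 at percentiles 7.96 and 4.11.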

How the data were processed

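DNase-seq files of left cerebral cortex from 2 mice, 1 library each, were used as the authors deposited them, on mm10. Peak height is a deposited signal value with an unstated factor per library. The authors deposited the cut-rate FDR as a p-value-like rate per run, listing runs under 0.05. The footprint score is constant, so positions alone were used. Aligner, peak caller and read depth: not given in the sources used here.

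Python 3.11.15, numpy 2.4.6, pandas 2.3.3 and pyfaidx 0.9.0.4 were used with GENCODE M21 genes outside the mitochondrial chromosome and the GRCm38 sequence. The shorter lists held 69208 and 69128 peaks, with median heights of 1.17 and 0.909, and 318728 and 317176 footprints. Interval code was tested on simulated data. Of the RefSeq promoter rows of members, 39 of 39 equalled the genome.

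Members, lists, motifs and settings were chosen with earlier results of these data known. Genes were named by a rule: the catalytic, testis and thymus subunits, uncalled members, the 5 highest and 5 lowest percentiles, the 3 largest height ratios to each side, the 3 members with most footprints, and the 3 highest helper genes. Others are named as examples of their role, seen after their values.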

Additional observations from a re-analysis of the deposited data

How the results depend on the processing

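The counts of called members, standard, immune and helper genes and of members with footprints stayed within 1.5 times their main values in all settings run. The lowest were 38 members and 26 helper genes with the start of the gene record only, and 2 immune genes with coding starts and 500 bp. The median height percentile, 62.1 as the mean of the mice, was 66.2 with the peak nearest a start, and 59.5 to 64.7 with either mouse left out. The median of bases under the strict FDR, 821, was 954.5 with the FDR under 0.05, as that limit admits more bases, and 779 to 863 with either mouse left out. Coding starts, the gene record start for bases, and leaving out shared peaks were chosen after seeing the data. No paired analysis was possible because the libraries form 1 group. Depth is unknown, and 2 libraries cannot separate animal from library.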

Other observations

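Inside the genes, more than 1 kb from any start, peaks were present at 6 of 43 proteasome genes in replicate 1 and 7 in replicate 2 (14.0% and 16.3%), against 34% and 33.8% of all protein-coding genes. The genes are shorter, with a median length of 11760 bp against 17420 bp, and the part of length in this was not tested. Psmd9 had the most such peaks, 4 and 3.

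The open promoters of Psma6, Psmd5 and Psmd9 lay away from the start of the gene record. At Psmd9 the record starts at chr5:123169413, while the only promoter peak, chr5:123228141-123228320 in replicate 1, lies at the coding start at 123228190. At Psma6 the record starts at chr12:55384222 and the peak, chr12:55398681-55398940, at the coding start at 55398775.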
